A study of Oryza sativa with 7 samples.

Results

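The comparison described here sets the rice mutant allele osbzip76-1 against its wild type (WT), the cultivar Kitaake. Its members are the genes whose mean over the 5 libraries involved, 3 of WT and 2 of osbzip76-1, reached 1 RPKM (a read count scaled to gene length and library size). They number 21328 of the 35825 genes in the deposited table. Both groups are caryopses of paddy-grown plants collected 2 days after fertilization, and neither carries any other allele or treatment named in the labels. The labels call the replicates biological. They give neither the lesion in osbzip76-1 nor how many plants or grains went into a library, and the RNA protocol speaks of endosperm where the tissue label says caryopsis. The series has another allele, osbzip76-2, which does not enter any value below.

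The caryopsis is the young grain: a maternal pericarp and seed coat around the nucellus, with embryo and endosperm inside. In cereals the endosperm first divides its nuclei without walls, then forms cells, and afterwards fills with starch and storage protein. OsbZIP76 is a basic leucine zipper transcription factor, and the study asked how its mutants change the transcriptome around cellularization. Mutant and WT endosperm had both begun to form cells at the sampled stage, according to the series description, because of a hot summer. Starch filling depends on sucrose cleavage, ADP-glucose supply by ADP-glucose pyrophosphorylase, and synthases and branching enzymes, while DOF and bZIP factors activate many seed genes.

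Genes without a symbol in the deposited table are given by their RAP identifier, in which the digits before the g are the chromosome and the digits after it follow gene order. A symbol beside an identifier was paired with it from general knowledge and kept only where the RefSeq gene table holds 1 gene of that symbol on the same chromosome, a check that could miss a wrong pair. No source used here ties a gene of the table to OsbZIP76, so the genotype labels were not checked against its transcript.

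Depth was similar among the libraries, but 1 WT library stood apart. The recovered totals were 19900850 to 24887952 reads, of which 82.5% to 85.4% lay in genes. In a principal component analysis WT replicate 2 scored -60.5 on component 1 (58.2% of the variance), while WT replicates 1 and 3 had -1.29 and 2.46 and the osbzip76-1 replicates 28.1 and 31.3. WT replicates 1 and 3 differed at least 2-fold in RPKM + 1 for 73 genes, the osbzip76-1 replicates for 234, and WT replicate 2 differed from the other WT libraries for 1090 and 1407. The only maternal marker scored, MADS29 (Os02g0170300), a factor of nucellus breakdown, was present in every library at 64.0 to 139.7 RPKM. The summed level of the endosperm markers that could be named, NF-YB1, AGPL2 and GLUA1, was 98.4, 44.2 and 87.5 RPKM in WT replicates 1 to 3 and 206 and 174 RPKM in osbzip76-1. Nearly all of this sum is AGPL2, a gene of the starch list below, while NF-YB1 and GLUA1 had groups that overlapped. That of the embryo markers OSH1 and VP1 was 6.84, 9.93 and 9.58 RPKM against 11.2 and 7.09 RPKM. The part of these shifts in the results below was not tested. Calls that change without WT replicate 2, and log2 differences or medians that then move by over 1.5 times, are therefore given both ways. In whole caryopses a smaller share of a cell type and less RNA per cell of that type cannot be told apart.

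In osbzip76-1, 59 genes rose and 26 fell past an adjusted p of 0.05 (limma on log2(RPKM + 1), Benjamini-Hochberg over the 21328 genes). That is 0.399% of the genes tested, 0.277% higher and 0.122% lower. None of the 85 carries a symbol in the table, where 151 genes with a name were tested. Of the 85 differences, 80 were at least 1 on the log2 scale. The smallest was 0.89, and the median was 2.20 among the genes that rose and -1.66 among those that fell. By mean level, 21 of the genes that rose were among the 6667 tested between 1 and 5 RPKM, 25 among the 8483 between 5 and 20 RPKM, 12 among the 5164 between 20 and 100 RPKM, and 1 among the 1014 at or above 100 RPKM. The balance was the other way for genes whose unadjusted limma p was under 0.05, with 1262 higher (5.92%) and 1724 lower (8.08%). The count past the adjusted threshold was 543 without WT replicate 2 (2.55%), of which 300 were higher (1.41%) and 243 lower (1.14%), and all 85 were among them. Leaving out WT replicate 1 gave 36 genes and leaving out WT replicate 3 gave 35. With osbzip76-1 replicate 1 or 2 left out the counts were 15 and 16.

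**Figure D1:**
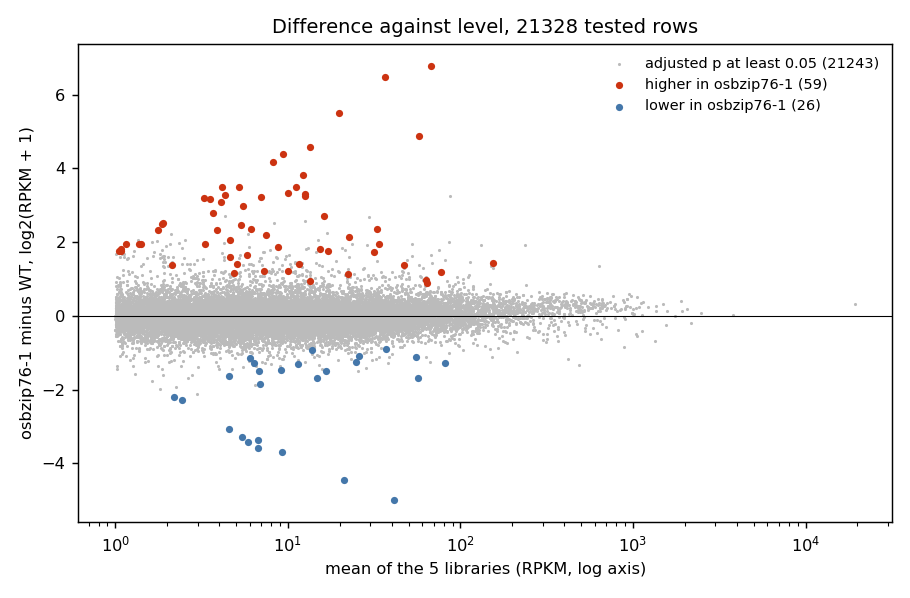
Difference between osbzip76-1 and WT on the log2(RPKM + 1) scale (vertical axis) against the mean of the 5 libraries in RPKM (horizontal log axis); each point is 1 gene. The 59 red points rose and the 26 blue points fell past the threshold; the points farthest from 0 lie at 6.79 and -5.01.

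The genes that rose most were close to silent in WT and well expressed in both osbzip76-1 libraries. Os03g0115800 stood at 0.0580, 0 and 0 RPKM in WT replicates 1 to 3 and at 88.1 and 93.7 RPKM in osbzip76-1. This rested on 2 WT reads against 5338 mutant reads, or 4653 times as many after scaling to depth (exact 95% binomial interval 1287 to 38428). The limma log2 difference was 6.49 (SE 0.15, adjusted p = 2.71e-05). Of the genes tested it had the smallest p. Os01g0537250 had the largest difference, from 0.348, 0.0746 and 1.42 RPKM in WT to 166 and 168 RPKM in osbzip76-1 (limma log2 difference 6.79, SE 0.33, adjusted p = 0.000354). The WT values of this gene varied widely among themselves, yet all were far below the mutant values. Read intervals here and below cover counting error only.

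Os10g0569800 and Os10g0567900, both on chromosome 10, followed the same pattern. The first stood at 0 to 0.142 RPKM in WT and at 36 and 63.1 RPKM in osbzip76-1, which is 671 times the depth-scaled WT reads (exact interval 229 to 3259). The second stood at 0.123 to 0.206 RPKM in WT and at 22.9 and 17.5 RPKM in osbzip76-1 (limma log2 difference 4.18, SE 0.19, adjusted p = 0.000343). Os04g0690500 differed from these in having a clear WT level. It stood at 3.29, 4.12 and 3.59 RPKM in WT and at 174 and 104 RPKM in osbzip76-1, 37.9 times the WT mean (limma log2 difference 4.87, SE 0.23, adjusted p = 0.000343). Its mutant replicates lay farther apart than its WT replicates.

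The other genes among the 12 with the largest increases were Os03g0299700, Os03g0629800, Os02g0640800, Os07g0248800, Os11g0615600, Os07g0244100 and Os01g0293000. Their mutant means ran from 10.3 RPKM (Os07g0244100, with 0 reads in all WT libraries) to 32.9 RPKM (Os03g0299700), and their log2 differences from 3.33 to 4.58. Without osbzip76-1 replicate 1 the calls of Os03g0629800 (adjusted p = 0.0521), Os11g0615600 and Os01g0293000 were lost, and those of the last 2 also without osbzip76-1 replicate 2 (up to 0.117). Os11g0615600 was lost with voom as well, a fit that weights log counts by their precision. In 3 genes of the table no read was found in any WT library and at least 50 in each mutant library. Os10g0491100 had 115 and 112 reads in the osbzip76-1 replicates (8.46 and 7.77 RPKM), Os10g0361375 had 74 and 213 (4.76 and 12.9 RPKM), and Os11g0623700 had 55 and 52 (4.97 and 4.43 RPKM). All 3 passed the threshold. Setting WT at a floor of 3 reads over the group, they were at least 132, 167 and 62.2-fold higher, in that order. The calls of Os10g0491100 and Os11g0623700 were lost without either mutant library, and that of Os10g0361375 without WT replicate 1, WT replicate 3 or osbzip76-1 replicate 2, with no filter and with voom.

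The genes that fell most were moderately expressed in WT and nearly absent from osbzip76-1. Os09g0427300 stood at 72.5, 60 and 70.7 RPKM in WT and at 0.754 and 1.56 RPKM in osbzip76-1 (limma log2 difference -5.01, SE 0.19, adjusted p = 0.000259). Os10g0498300 stood at 37.3, 30.2 and 36.7 RPKM in WT and at 0.425 and 0.802 RPKM in osbzip76-1 (limma log2 difference -4.47, SE 0.17, adjusted p = 0.000259). Both genes kept a trace of reads in the mutant, 83 and 30 in all. Os03g0619700 fell from 15.6, 15.5 and 14.8 RPKM to 0.426 and 0.0893 RPKM, and Os09g0520400 from 13, 8.77 and 11.3 RPKM to 0.0269 and 0.305 RPKM (adjusted p = 0.00177). The call of Os09g0520400 was lost without osbzip76-1 replicate 1 (0.0581) and with voom on recovered reads. Since no source used here gives the identifier of OsbZIP76, it was not settled whether Os09g0520400, or another gene that fell, is the mutated gene itself. In each of the 4 genes named here every WT library was far above both mutant libraries.

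A further 5 genes had no read in either osbzip76-1 library and at least 50 in each WT library. They were Os01g0207300, Os02g0616300, Os11g0616700, Os11g0616900 and Os11g0617800, and all 5 passed the threshold. Os11g0616900 was the best covered, with 459, 438 and 541 reads in WT (10.6, 10.8 and 12.1 RPKM). Setting the mutant at the floor of 3 reads over the group, it was at least 275-fold lower there. Os01g0207300 stood at 11.4, 7 and 8.52 RPKM in WT, from 319 reads, which makes it at least 61.0-fold lower. Its call was lost without either mutant library (up to 0.0786), and that of Os02g0616300 without any 1 library other than WT replicate 2 (up to 0.213) and with the replicate number as a block.

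**Figure D2:**
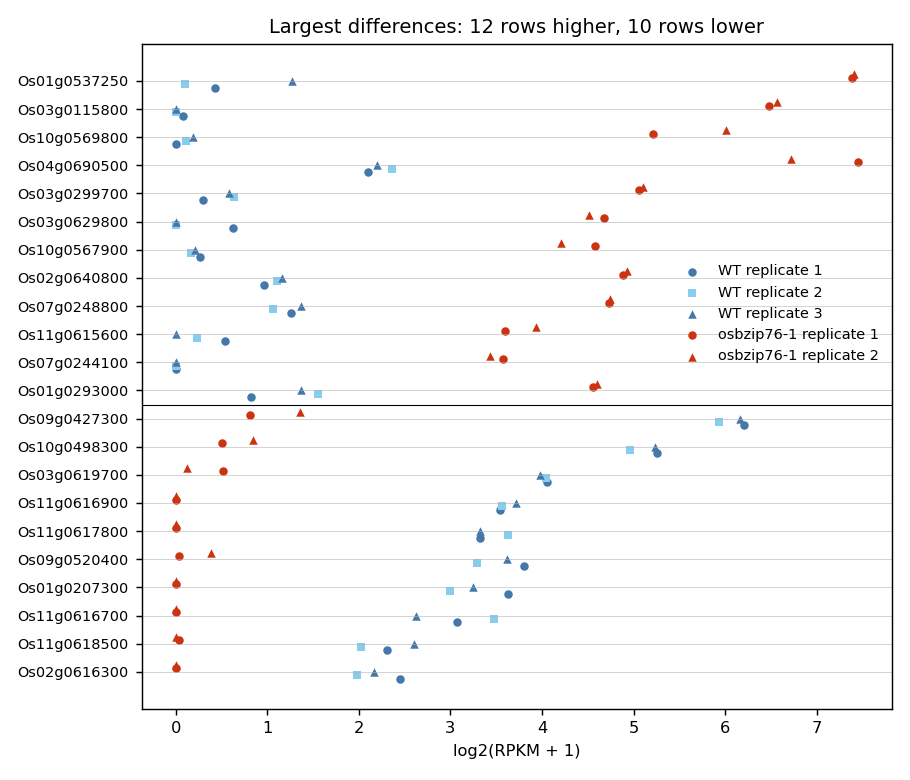
Level of the 12 genes with the largest increases (above the line) and the 10 with the largest decreases (below it) as log2(RPKM + 1) in each of the 5 libraries; WT in blue, osbzip76-1 in red. WT replicate 2, in light blue, lies with the other WT libraries. The groups are apart in all 22 genes because the rule that chose them required it.

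Several of the genes that changed lie close to each other. The longest run was on chromosome 11, where 4 of 5 consecutive tested genes fell: Os11g0616700, Os11g0616900, Os11g0617800 and Os11g0618500. Os11g0618500 stood at 3.95, 3.08 and 5.06 RPKM in WT, and its 2 mutant reads stood against 1227 in WT. The gene between them, Os11g0618300, stood at 2.03 RPKM in WT and 3.02 RPKM in osbzip76-1 on average (limma adjusted p = 0.405). A little before the run, Os11g0615300 stood at 3.00, 4.20 and 1.92 RPKM in WT and had no read in osbzip76-1, but did not pass (limma log2 difference -1.98, SE 0.28, adjusted p = 0.0538).

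Genes interspersed with these went the other way or did not differ past the threshold. Os11g0615600 rose from 0.453, 0.177 and 0 RPKM to 11.1 and 14.3 RPKM (limma log2 difference 3.51, SE 0.23, adjusted p = 0.00192). Beside it Os11g0615700, an abundant gene, stood at 119.9 RPKM in WT and 118 RPKM in osbzip76-1 on average (limma adjusted p = 0.944). Chromosome 11 had 11 of the 85 genes, 5 higher and 6 lower, which is 1.01% of its 1092 tested genes against 0.399% over all chromosomes and organelles. The calls of Os11g0616900 and Os11g0617800 were kept without any single library. That of Os11g0616700 was lost without WT replicate 1 (adjusted p = 0.0595) or either mutant library (0.160 and 0.153) and with voom, and that of Os11g0618500 without any 1 library other than WT replicate 2 (0.0653 to 0.222).

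**Figure D3:**
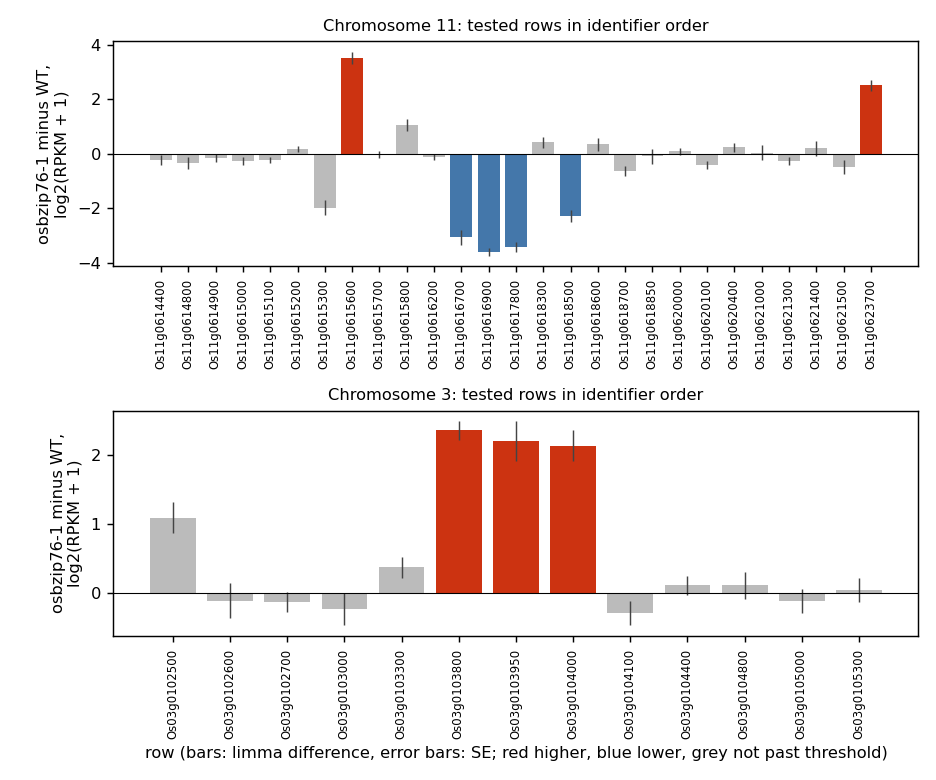
Difference between osbzip76-1 and WT on the log2(RPKM + 1) scale for consecutive tested genes of chromosome 11 (top) and chromosome 3 (bottom), in identifier order; bars are limma estimates and error bars their SE. On chromosome 11, 4 genes that fell (blue, -2.29 to -3.60) stand among grey genes that did not pass, most of them near 0, and 2 that rose (red), and on chromosome 3 a run of 3 genes rose (2.13 to 2.35).

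On chromosome 3 a run of 3 consecutive tested genes rose together. Os03g0103800 stood at 12.2, 10.3 and 13.1 RPKM in WT and at 66.2 and 62.1 RPKM in osbzip76-1, 5.41 times the WT mean (limma log2 difference 2.35, SE 0.14, adjusted p = 0.00108). Os03g0103950 and Os03g0104000 rose by a like amount, 5.79 and 4.75 times (adjusted p = 0.0418 and 0.0182). The genes on either side, Os03g0103300 and Os03g0104100, had log2 differences of 0.37 and -0.29 and did not pass. Os03g0105500, a further 7 tested genes along, rose from 0.172 RPKM in WT to 10.6 RPKM on average, a call lost without either osbzip76-1 library (up to 0.104). Without either osbzip76-1 library none of the 3 calls in the run was kept (adjusted p = 0.0529 to 0.503), and without WT replicate 1 or 3 that of Os03g0103800 alone was kept.

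Adjacent tested genes rose in pairs on chromosomes 7 and 12. Os12g0575300 and Os12g0575400 had nearly the same level in each mutant library, 18.7 and 18.5 RPKM in replicate 1 and 38.2 and 38.5 RPKM in replicate 2, against 1.03 to 3.40 RPKM in WT. Overlapping or similar gene models can share reads, and no source used here gives the counting rule. Both calls were lost without any 1 library other than WT replicate 2 (up to 0.336). Os07g0248800 rose from 1.39, 1.09 and 1.59 RPKM to 25.6 and 25.8 RPKM, and its neighbour Os07g0248900 from no reads in WT to 2.63 and 3.16 RPKM. The call of Os07g0248900 rested on 25 mutant reads and was lost without any 1 library other than WT replicate 2. On chromosome 5, Os05g0342000 and Os05g0344200 rose, the ends of 5 consecutive tested genes. They went from 1.29 and 45.3 RPKM in WT to 11.4 and 89.3 RPKM in osbzip76-1 on average (limma adjusted p = 0.012 and 0.0397). Both calls were lost without WT replicate 1 or either osbzip76-1 library. That of Os05g0344200 was lost as well without WT replicate 3, with no filter, with no trend and with the replicate block. In all, 14 of the 85 genes lay within 5 tested genes of another one of them. How many of 85 genes picked from all tested genes would do so was not tested.

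Some genes that were well expressed in both genotypes also changed. Os03g0654800, the most abundant gene that rose, stood at 88.7, 95.8 and 88.1 RPKM in WT and at 259.6 and 236 RPKM in osbzip76-1, 2.73 times the WT mean (limma log2 difference 1.44, SE 0.12, adjusted p = 0.00714). Os01g0969000 stood at 55.5, 42.7 and 55.2 RPKM in WT and at 118 and 116 RPKM in osbzip76-1 (adjusted p = 0.0376). In the other direction Os03g0761500 fell from 96.3, 112 and 112 RPKM to 42.4 and 43.4 RPKM, 0.402 times the WT mean (limma log2 difference -1.29, SE 0.13, adjusted p = 0.0135). Os08g0278900 and Os04g0553500 fell to 0.450 and 0.304 times their WT means of 70.5 and 78.8 RPKM. These genes were singled out after their values were seen, and each call was lost in 4 or more of 13 alternative settings.

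Genes of starch synthesis stood higher in osbzip76-1, although none of the 13 tested members passed the threshold over all genes. Of the 13, 10 had a positive log2 difference, with a list median of 0.56 against -0.02 over all genes tested. By unadjusted limma p under 0.05, 8 were higher and 1 was lower, against 5.92% and 8.08% of all genes. In 9 of 13 both mutant libraries were above all WT libraries, as in 16.4% of all genes. WT replicate 2 was the lowest WT library in 10 of the 13. Without it the median was 0.39 and 5 members passed, all higher, against 1.41% of all genes: AGPL2, AGPS2, AGPS1, GBSSI and BEI.

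ADP-glucose pyrophosphorylase makes the sugar nucleotide from which starch is built, and none of its subunits passed with all libraries. The large subunit AGPL2 stood at 87.4, 37.9 and 81.6 RPKM in WT and at 193 and 167 RPKM in osbzip76-1 (limma log2 difference 1.46, SE 0.35, adjusted p = 0.181, or 0.00539 without WT replicate 2). Its usual partner in rice endosperm, the small subunit AGPS2, stood at 48.6, 29.4 and 47.2 RPKM in WT and at 84.4 and 85.9 RPKM in osbzip76-1 (limma adjusted p = 0.150, or 0.00763 without WT replicate 2). In both genes the mutant libraries were above every WT library, as in 16.4% of all genes. The small subunit AGPS1 stood at 101, 68.7 and 106 RPKM against 155 and 164 RPKM. The large subunit AGPL3 had the highest level of the list, at 396, 333 and 391 RPKM in WT and 353 and 383 RPKM in osbzip76-1, and its groups overlapped (limma log2 difference -0.02, SE 0.15, or -0.10 without WT replicate 2), with a sign that turned in several alternative settings.

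Enzymes that build and trim the glucan varied in the same list. GBSSI (Os06g0133000), the synthase of amylose, stood at 9.79, 2.10 and 7.67 RPKM in WT and at 34.0 and 20.8 RPKM in osbzip76-1 (limma log2 difference 2.06, SE 0.52, adjusted p = 0.196, or 0.0208 without WT replicate 2). BEI (Os06g0726400), a branching enzyme, stood at 40.6, 43.4 and 40.4 RPKM in WT and at 62.8 and 60.3 RPKM in osbzip76-1, 1.48 times the WT mean (limma adjusted p = 0.135, or 0.0252 without WT replicate 2). Its WT level did not rest on the deviating library, which was the highest of the 3. The soluble synthases SSI (Os06g0160700) and SSIIa (Os06g0229800) stood at 1.21 and 1.95 times their WT means and did not pass with or without that library. The log2 difference of SSIIa was 1.04 with it and 0.56 without it. DPE2 (Os07g0662900), a disproportionating enzyme of the cytosol, was lower in both mutant libraries, at 23.3 and 23.9 RPKM against 28.4 to 30.9 RPKM in WT (limma adjusted p = 0.318), while DPE1 (Os07g0627000), the plastid enzyme, stood at 1.46 times its WT mean (adjusted p = 0.276).

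**Figure D4:**
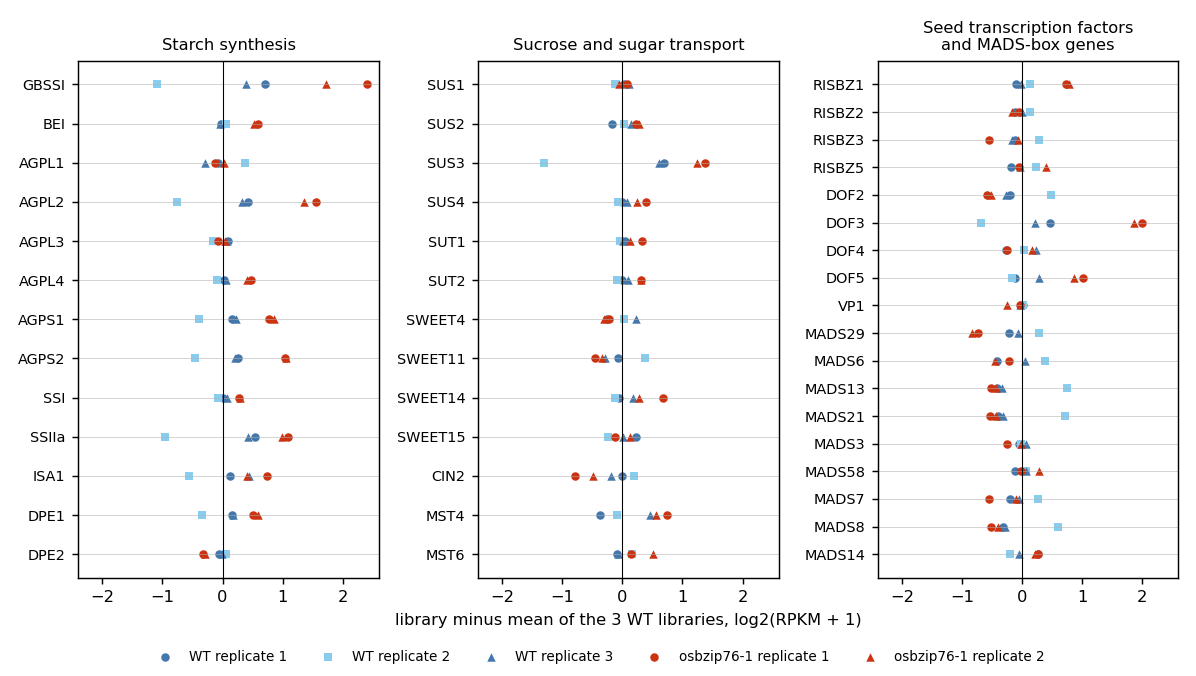
Each library minus the mean of the 3 WT libraries on the log2(RPKM + 1) scale, for the tested genes of 4 lists; WT in blue with replicate 2 as light squares, osbzip76-1 in red. Red points lie to the right of every blue point for 9 of 13 starch genes and for RISBZ1, DOF3 and DOF5, and the light squares stand out to the left for starch genes and to the right for most MADS-box genes.

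Of 9 seed transcription factors, DOF3, DOF5 and RISBZ1 stood higher in osbzip76-1. DOF3, which binds the prolamin box of storage protein promoters in rice, stood at 18.1, 7.57 and 15.1 RPKM in WT and at 53.9 and 49.3 RPKM in osbzip76-1, 3.80 times the WT mean (limma log2 difference 1.93, SE 0.32, adjusted p = 0.0893, or 0.00133 without WT replicate 2). RISBZ1, a bZIP factor that acts with it on the same promoters in rice, stood at 2.21, 2.74 and 2.37 RPKM in WT and at 4.68 and 4.86 RPKM in osbzip76-1 (limma log2 difference 0.75, SE 0.17, adjusted p = 0.161, or 0.0440 without WT replicate 2). DOF5, another DOF zinc finger gene, stood at 8.05, 7.76 and 11 RPKM in WT and at 18.8 and 16.9 RPKM in osbzip76-1 (limma adjusted p = 0.121, or 0.0391 without WT replicate 2). The mutant libraries of these 3 of 9 genes lay above every WT library, against 16.4% of all genes. The list median was -0.05, or -0.03 without WT replicate 2. DOF2 was lower in both mutant libraries (limma log2 difference -0.56, SE 0.23, adjusted p = 0.360; -0.32 and 0.148 without WT replicate 2), and RISBZ2, RISBZ3, RISBZ5, DOF4 and VP1 had groups that overlapped.

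Storage protein genes, which these factors are known to activate, did not stand higher. All 4 tested glutelin genes had negative log2 differences, with a median of -0.39 (-0.18 without WT replicate 2) and overlapping groups. GLUA2 (Os10g0400200) stood at 7.39, 7.15 and 4.28 RPKM in WT and at 6.61 and 3.68 RPKM in osbzip76-1, and GLUA1 (Os01g0762500) at 3.58, 3.70 and 0.639 RPKM against 2.58 and 0.377 RPKM. Replicates of 1 genotype differed by more than the genotypes did, and glutelin genes are alike enough in sequence to share reads. The sign of both genes turned without osbzip76-1 replicate 2. NF-YB1 (Os02g0725900), an endosperm subunit of the NF-Y factors that the series title names as partners, stood at 7.40, 2.62 and 5.21 RPKM against 11.1 and 6.42 RPKM, with overlapping groups (limma log2 difference 0.72, adjusted p = 0.434; 0.39 and 0.423 without WT replicate 2).

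Of the genes of sucrose use and transport, none of 13 tested members passed with all libraries. The list median was 0.25, or 0.27 without WT replicate 2. Before adjustment 4 members were higher and 1 was lower at a limma p under 0.05, against 5.92% and 8.08% of all genes. SUS3 (Os07g0616800), a sucrose synthase, stood at 147, 35.8 and 138 RPKM in WT and at 235 and 215 RPKM in osbzip76-1, and passed without WT replicate 2 (limma log2 difference 0.65, adjusted p = 0.0276; 1.31 and 0.372 with all libraries). SUS4 (Os03g0340500), another sucrose synthase, and the sugar exporter SWEET14 (Os11g0508600) stood at 17.9 and 5.39 RPKM in osbzip76-1 against 14.1 and 3.58 RPKM in WT on average, and the sucrose carrier SUT2 at 21.4 RPKM in both mutant libraries against 15.9 to 18.3 RPKM in WT. A positive log2 difference was found in 10 of 13. The member lower at an unadjusted limma p under 0.05 was the cell wall invertase CIN2 (Os04g0413500). It stood at 233, 266 and 204 RPKM in WT and 135 and 166 RPKM in osbzip76-1 (limma log2 difference -0.63, SE 0.17, adjusted p = 0.209, or 0.0888 without WT replicate 2). SWEET11 (Os08g0535200), the member with the highest level, stood at 359, 492 and 309 RPKM against 275 and 301 RPKM (limma log2 difference -0.40, adjusted p = 0.446; -0.21 and 0.392 without WT replicate 2). Its mutant libraries lay below every WT library, as in 21.8% of all genes.

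The listed MADS-box genes were mostly on the lower side, with a positive log2 difference in 2 of 9. Before adjustment 1 of 9 was lower at a limma p under 0.05 and none was higher, against 8.08% and 5.92% of all genes. In 4 of 9 both mutant libraries were below all WT libraries, as in 21.8% of all genes. Here WT replicate 2 was often the highest WT library, in 6 of 9 genes. MADS29 stood at 98.4, 139.7 and 110.0 RPKM in WT and at 68.8 and 64.0 RPKM in osbzip76-1 (limma log2 difference -0.78, SE 0.17, adjusted p = 0.156). It passed without WT replicate 2 (log2 difference -0.64, adjusted p = 0.0276), so the difference was not confined to that library. For the ovule identity genes MADS13 (Os12g0207000) and MADS21 (Os01g0886200) the result was otherwise, with log2 differences of -0.48 and -0.49 that shrank to -0.10 and -0.13 without WT replicate 2. MADS13 stood at 127, 286 and 134 RPKM in WT and at 118 and 125 RPKM in osbzip76-1. The list median was -0.34 with all libraries and -0.14 without WT replicate 2.

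The 10 genes named in the table with the smallest p were all higher in osbzip76-1. They were DMAS1, Cht7, DOF3, DOF5, AGPS2, RISBZ1, RINO1, MSBP2, AGPL2 and AGPS1, and none passed with all libraries. Among the 151 with a name, 31 had a limma p under 0.05 before adjustment, 24 higher and 7 lower, against 5.92% and 8.08% of all genes. DMAS1, which makes deoxymugineic acid for iron uptake in grasses, stood at 10.8, 7.03 and 10.5 RPKM in WT and at 24.9 and 25.3 RPKM in osbzip76-1 (limma log2 difference 1.34, SE 0.20, adjusted p = 0.0587, or 0.00296 without WT replicate 2). NAS1 (Os03g0307300), which makes nicotianamine earlier in that pathway, stood at 2.75, 0.384 and 3.76 RPKM against 6.73 and 4.88 RPKM (limma log2 difference 1.21, adjusted p = 0.352; 0.67 and 0.125 without WT replicate 2). Of the 3 tested members of the iron list, IRT1 (Os03g0667500), an iron transporter, had a log2 difference of 0.02 (0.18 without WT replicate 2).

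Cht7, a chitinase gene, stood at 0.350, 0 and 0.339 RPKM in WT and at 2.97 and 2.25 RPKM in osbzip76-1 (limma log2 difference 1.56, SE 0.25, adjusted p = 0.0770, or 0.0203 without WT replicate 2). The list of 10 chitinase and defence genes had a median of 0.25, with 2 higher and 1 lower at an unadjusted p under 0.05, against 5.92% and 8.08% of all genes. The lower one was RAC1, at 20.4, 33.4 and 19.6 RPKM in WT and 16.1 and 13.5 RPKM in osbzip76-1 (limma log2 difference -0.65, SE 0.24, adjusted p = 0.307; -0.42 and 0.121 without WT replicate 2). PBZ1 (Os12g0555500), a pathogenesis-related gene, stood at 19.4, 8.85 and 25.8 RPKM in WT and 27.1 and 83.9 RPKM in osbzip76-1, so that the mutant libraries lay far apart (limma adjusted p = 0.314). RINO1, which makes inositol phosphate on the way to phytate, stood at 62.6, 46.2 and 53.9 RPKM against 85.4 and 86.7 RPKM. MSBP2, a membrane steroid-binding protein gene, stood at 1.81 times its WT mean. Both passed without WT replicate 2 (limma adjusted p = 0.0448 and 0.0140).

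No tested gene of chromatin, DNA replication or cell wall that could be named as described passed. Polycomb and DNA replication had 1 such gene each, so most listed Polycomb genes are not covered. None of 4 DNA methylation genes, 8 cellulose synthase family genes, 3 gibberellin genes and 2 abscisic acid genes passed. The same held without WT replicate 2. Of all genes 0.399% passed, or 2.55% without WT replicate 2. None of the listed genes had an unadjusted limma p under 0.05 either, against 5.92% higher and 8.08% lower among all genes. Lists this short cannot show whether their share was below that of all genes. The Polycomb gene EZ1 (Os03g0307800) stood at 8.95, 9.18 and 9.47 RPKM in WT and 7.78 and 7.83 RPKM in osbzip76-1, and PCNA (Os02g0805200), the clamp of DNA replication, at 56.4, 54.9 and 70.3 RPKM against 78.5 and 72.6 RPKM. In both the groups were apart, as in 21.8% of all genes on the lower side (EZ1) and 16.4% on the higher side (PCNA). Neither passed (limma adjusted p = 0.496 and 0.392). CESA1 (Os05g0176100), a primary wall cellulose synthase, stood at 62.4, 93.5 and 61.5 RPKM against 56.1 and 56.3 RPKM (limma log2 difference -0.33, adjusted p = 0.484; -0.14 and 0.437 without WT replicate 2). The embryo gene OSH1 stood at 3.00, 6.08 and 5.93 RPKM against 7.56 and 4.11 RPKM, with overlapping groups and a sign that turned in 2 of the alternative settings (log2 difference 0.19, or 0.33 without WT replicate 2). Missing the threshold with 2 mutant libraries does not show that levels were equal.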

How the data were processed

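Poly(A) RNA was sequenced from caryopses, per the labels' protocols. The authors deposited RPKM values; per the submitters' processing notes they rest on build IRGSP-1.0. The sources used here do not give the aligner, counter, strand setting or annotation. Columns were matched to libraries by title. The authors' mean columns were not used.

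Genes with a mean of at least 1 RPKM over the 5 libraries entered a two-sided test on log2(RPKM + 1) by limma 3.58.1 (R 4.3.3; lmFit, then eBayes with trend); the added 1 understates changes of low genes. The threshold was an adjusted p of 0.05. P-values measure the spread between these libraries.

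Low RPKM values rise in steps of 1 read, so each library's total and the smallest whole reads that give its values were recovered, with 100% of 139963 values above 0 whole within 0.02 reads; a read count printed here can be too small by a whole factor. At the median gene length of 1454 bases, 1 RPKM corresponded to 32.7 reads. Intervals are exact 95% binomial.

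Of 341 genes with a name in the table, 208 were in the RefSeq table (assembly ASM3414082v1), and 56 further identifiers were given a symbol as described. Named genes were the 12 largest increases and 10 largest decreases past the threshold with groups apart, list members (past the threshold, the 2 smallest p, the highest level), the 10 named genes of smallest p, and the 3 longest runs of neighbours; others were singled out after their values were seen. Members and lists were chosen with earlier results of these data known. Lists with no member that could be named are not reported. Alternatives covered the pseudocount, filter, scaling, weights, trend, each library left out, the replicate number and voom on recovered reads.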

Additional observations from a re-analysis of the deposited data

How the results depend on the processing

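The count of 85 genes past the threshold was within 1.5 times under a pseudocount of 0.1 (69), no filter (60), quantile normalization (110), median centring (101), no trend (84) and voom on recovered reads (57). It moved to 15 to 543 when 1 library was left out and to 1131 with array weights (559 higher, 572 lower), where WT replicate 2 had a weight of 0.203; the cause of the latter was not tested. Of the 57 with voom, 44 were higher. Of the 85, 14 genes, 9 higher and 5 lower, passed in all 13 alternatives. Leaving out 1 osbzip76-1 library left 1, assumed to vary like WT. Replicate numbers are shared by WT and osbzip76-1, and same-numbered libraries did not deviate together (r = -0.01 and -0.10 across genes). With 2 mutant libraries these values cannot settle whether the numbers mark a pairing. With the replicate block 61 genes passed, 49 of them among the 85.

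Signs turned for 7 genes, none of which passed the threshold; values are limma log2 differences. AGPL3 ranged from -0.10 to 0.04 when 1 library was left out, with 0.02 under the replicate block and median centring and 0.01 with voom. Over the same omissions Os01g0762500 ranged from -1.25 to 0.13, Os10g0400200 from -0.61 to 0.10, CMT3 from -0.01 to 0.14, Os02g0703600 from -0.38 to 0.42, rbcL from -0.27 to 0.13 and OSH1 from -0.19 to 0.56. With array weights Os02g0703600 was at 0.35 and rbcL at 0.20. Depth limits genes near 1 RPKM, where the median gene had about 32.7 reads a library.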
